A study of Mus musculus with 24 samples.

Results

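The 9 genes described here encode plasma carrier proteins of the liver, A1bg, Alb, Afm, Gc, Ttr, Ahsg, Fetub, Apoh and Ambp. They were selected by name out of the 24443 gene names of the tables, and the set was proposed because A1bg and Alb stood out between fed Bcl6LKO and fed WT livers. For that comparison their values are therefore given as a description with no test, and tests are given in the other 3, except for A1bg. Total RNA from whole liver of male C57BL/6 mice had been sequenced after ribosomal RNA depletion. The values fall into 5 groups of 4 libraries. Fasted WT livers came from Bcl6 fl/fl mice without Cre after an overnight fast, and fed Bcl6LKO livers from fed Bcl6 fl/fl; Alb-Cre mice. Fasted PparaKO livers came from Ppara-/- mice, in which Ppara is lost in the whole body and for which no floxed allele is named, and fasted DKO livers from Ppara-/-;Bcl6 fl/fl; Alb-cre mice. Fed WT livers came from fed Bcl6 fl/fl mice without Cre. The Cre is driven by the albumin promoter, so the groups that lack hepatocyte Bcl6 are also the groups that carry an Alb transgene, and these cannot be told apart. WT mice carry the floxed Bcl6 allele and none is named for PparaKO mice. Loss of Ppara and this allele thus cannot be told apart in that comparison. A group of 4 fasted Bcl6LKO samples was not analysed here. Whether each library is its own animal is not stated in the labels, and the p-values cover the variation among these libraries, which may be technical.

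Plasma carriers are made by hepatocytes, pass through the endoplasmic reticulum and bind hydrophobic or charged cargo in the blood. Albumin is the most abundant of them and carries fatty acids, bilirubin and hormones. Afamin and the vitamin D binding protein, encoded by Afm and Gc, belong to the same gene family. Transthyretin carries thyroid hormone and holds retinol binding protein in the circulation, the fetuins Ahsg and Fetub bind calcium phosphate and inhibit proteases, beta-2-glycoprotein I (Apoh) binds anionic phospholipids, and Ambp encodes a precursor that is cut into the lipocalin alpha-1-microglobulin and the protease inhibitor bikunin. A1bg is an immunoglobulin-domain protein of plasma that is typical of female mouse liver.

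All levels are deposited log2 values that pull low genes towards their own mean, and each of the 4 tables holds 8 libraries and was scaled by itself. The fasted WT libraries serve in 3 tables and the fed WT libraries in 2, so the comparisons are not independent. Of the 9 members, 8 passed a mean of at least 4 in the fasting and PparaKO tables, where A1bg did not, and all 9 passed in the Bcl6LKO and DKO tables. Ppara, whose deleted part the files do not mark, differed by -1.04 in PparaKO livers and by -1.77 in DKO livers (limma adjusted p = 3.82e-06 and 4.53e-05), with no overlap with WT. Bcl6, whose floxed allele leaves exons that are still counted, was 7.62 to 8.54 in fed Bcl6LKO and 8.02 to 10.49 in fed WT livers (-1.53, SE 0.45, limma adjusted p = 0.0207), and its difference in DKO livers was -0.39 (SE 0.47, limma adjusted p = 0.540), which did not pass. The read depth behind the values is unknown. All 10 hepatocyte markers other than the members were fitted in each table, and pancreas markers lay at or near 0.

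Fasting moved 1 of the 8 fitted members. Apoh was higher and no member was lower, beside 11.9% of all genes higher and 11% lower in fasted WT than in fed WT livers. The fed Bcl6LKO and fed WT libraries did not overlap for any of the 9 members, of which 7 were higher and Ttr and Ambp lower. The same held for 36.7% of all genes in that comparison, which had chosen the members, and nothing is read from the count. In PparaKO livers Ahsg, Ambp and Fetub were higher and Afm and Alb lower (3 and 2 of 8 fitted members, beside 11.7% of genes higher and 13.3% lower). In DKO livers A1bg, Alb, Ahsg and Gc were higher and Ttr and Apoh lower (4 and 2 of 9 members, beside 19.3% of genes higher and 20.8% lower). A1bg entered that fit through the DKO libraries, so nothing is read from its call, and without it 3 of 8 were higher. As a description, the median difference over the 8, 9, 8 and 9 fitted members was 0.059, 0.41, -0.050 and 0.15 for fasting and the Bcl6LKO, PparaKO and DKO tables, beside -0.0025, -0.0074, 0.0055 and 0.0027 over all genes. Apart from A1bg, exact two-sided permutation p-values were 0.0286 for each called member but Fetub in PparaKO livers (0.0571). The value of 0.0286 is the smallest that 70 arrangements of 8 libraries allow. A called gene had a limma adjusted p under 0.05, with Benjamini-Hochberg adjustment across every gene fitted. The split over all genes depends on scaling. With the same total in every library, higher genes made up 19.7% of the genes called in fasting, against 52% as deposited, 12.4% against 48% in the Bcl6LKO table, and 31.8% against 48.1% in the DKO table, and in the Bcl6LKO table this scaling moved the median of all genes by -0.22. Leaving the members out of the total gave 22.9% in fasting, 38.4% in the Bcl6LKO table and 51.4% in the DKO table.

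**Figure D1:**
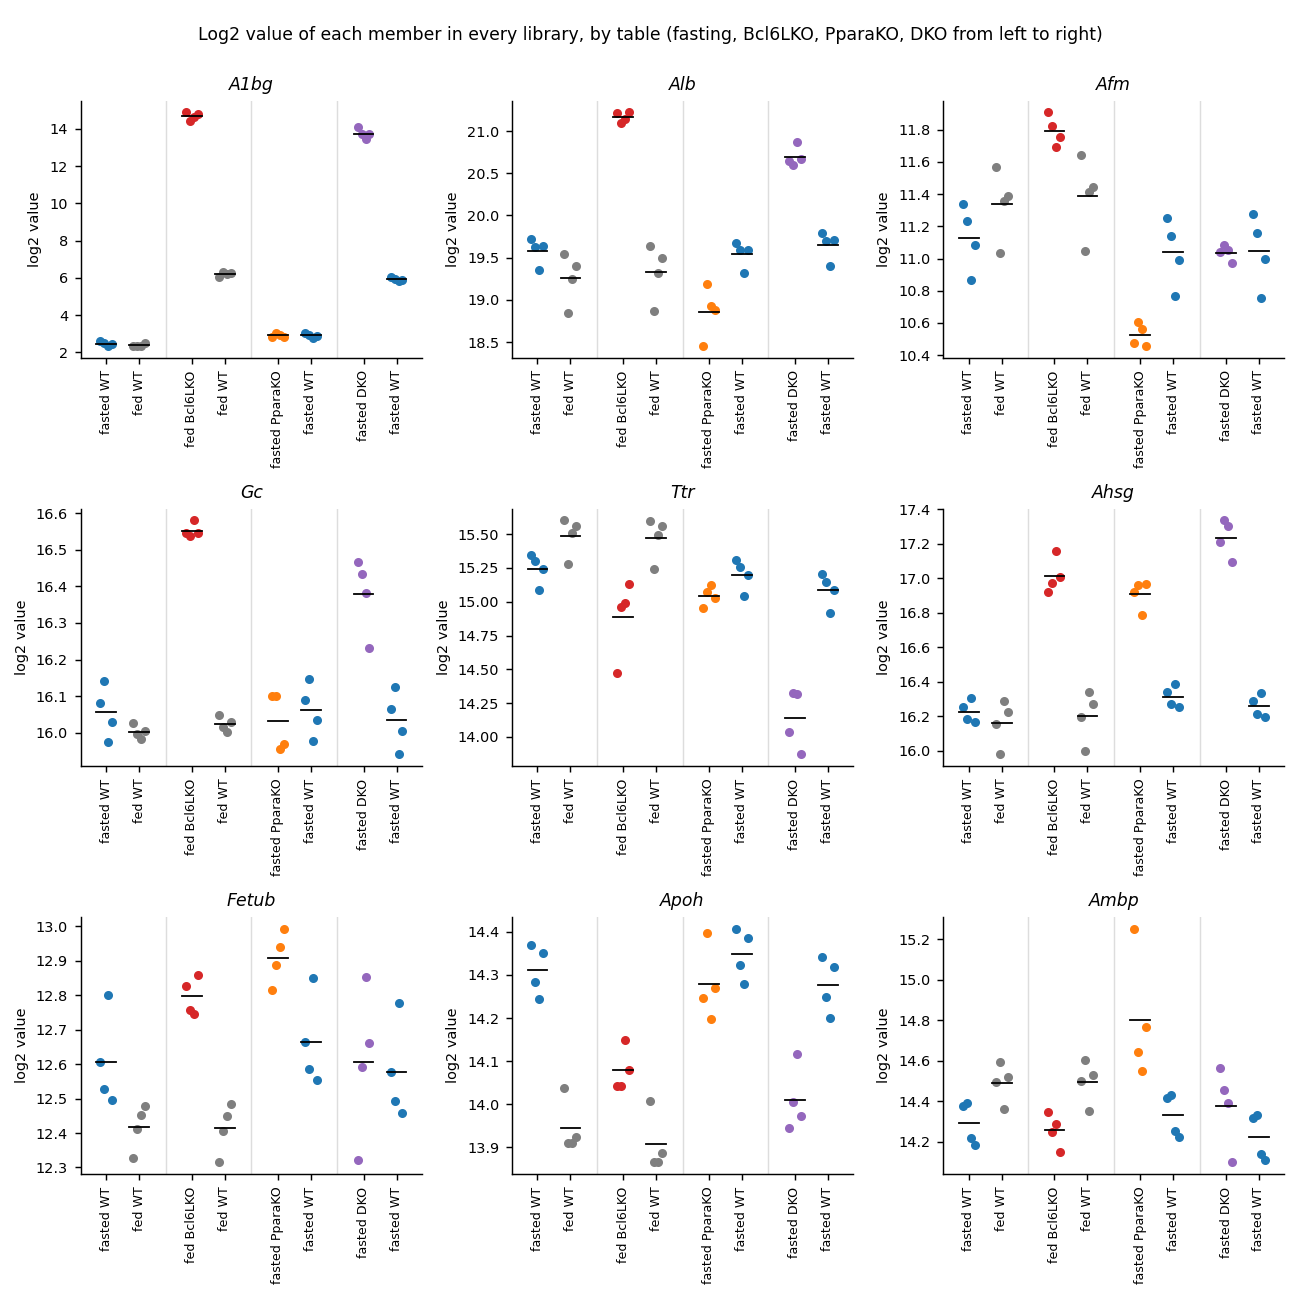
Log2 value of each of the 9 members in every library (points) with the group mean (line). Each panel is 1 gene, with the fasting, Bcl6LKO, PparaKO and DKO tables from left to right, and the scales of the tables are separate. A1bg lies at 13.48 or above in the fed Bcl6LKO and fasted DKO libraries and at 6.31 or below in the others, while Ttr is lowest in fasted DKO livers.

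A1bg was the member that differed most. In fed Bcl6LKO livers it had log2 values of 14.89, 14.41, 14.62 and 14.80, against 6.07, 6.31, 6.21 and 6.26 in fed WT livers, a difference of 8.47 or 354-fold on the deposited scale. All 4 fed Bcl6LKO libraries lay far above all 4 fed WT libraries. In fasted DKO livers the values were 14.10, 13.72, 13.48 and 13.70, against 6.07, 5.93, 5.84 and 5.91 in fasted WT livers. That difference of 7.81 (SE 0.12) corresponds to 225-fold on the deposited scale, with no overlap. The same fasted WT libraries put A1bg under the filter in the PparaKO table. It thus entered the DKO fit through the DKO libraries, and no test is given. In the other tables A1bg stayed near the floor. It was 2.82, 3.05, 2.96 and 2.83 in fasted PparaKO and 3.07, 2.93, 2.80 and 2.89 in fasted WT livers, with overlapping ranges. In the fasting table A1bg was 2.37 to 2.60 in fasted WT and 2.34 to 2.48 in fed WT livers. The fed WT libraries are the same ones in the fasting and Bcl6LKO tables, yet read 2.38 ± 0.07 (SD, n = 4) when scaled with fasted WT livers and 6.21 ± 0.11 when scaled with fed Bcl6LKO livers, so the WT level and the fold depend on what else is in the table.

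A1bg (mm10, chromosome 15, 60896859 to 60923012, minus strand, 7 exons) is set here beside genes known to be female-biased in mouse liver. Of 12 such genes, 12 were higher in fed Bcl6LKO than in fed WT livers, with a median difference of 4.92 beside -0.0074 over all genes, of which 18.3% were higher and 19.8% lower. Cyp2a4, a steroid hydroxylase, differed by 7.81 (SE 0.13) and Sult2a1, a sulfotransferase, by 6.64 (SE 0.08), given as a description with no test. In DKO livers 9 of the 10 fitted genes of the list were higher (median 4.84, beside 0.0027 over all genes). In fasting 1 gene of the list was fitted, Cux2, a female-specific transcriptional repressor, and it was higher by 0.96 (SE 0.16, adjusted p = 0.00185). None of the 2 fitted in the PparaKO table was called. The same WT libraries are in these tables, where most of the list fell under the filter, so its genes entered the Bcl6LKO and DKO fits largely through the knockout libraries, and nothing is read from those counts and medians. Male-biased genes moved the other way. All 12 were lower in fed Bcl6LKO livers and 11 of 12 in DKO livers, with median differences of -4.99 and -2.95, among them Mup7, a urinary pheromone carrier, at -7.10 (SE 0.35, adjusted p = 9.06e-08) and -4.39 (SE 0.33, adjusted p = 3.42e-06). Of the male-biased genes 7 of 12 were lower in fasting, while in PparaKO livers 3 were higher and 1 lower. Of all genes, 19.3% were higher and 20.8% lower in DKO livers, 11.9% and 11% in fasting, and 11.7% and 13.3% in PparaKO livers. Genes of these lists have near-identical relatives, between which reads may be split.

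Among the genes whose log2 pattern was most like that of A1bg over the 8 libraries of the Bcl6LKO table and the 8 of the DKO table were Cyp3a16, a cytochrome P450, and Dnah11, an axonemal dynein. Their mean Pearson r was 0.9992 and 0.9991, among 11850 genes. The 8 libraries of each table fall into 2 clusters, so r here describes mainly the gap between the groups. Cyp3a16 was 11.64 ± 0.11 in fed Bcl6LKO and 5.54 ± 0.10 in fed WT livers, and 11.24 ± 0.18 in fasted DKO and 5.26 ± 0.10 in fasted WT livers (SD, n = 4).

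The 250 bases before the RefSeq start are shown for A1bg and Alb, which differed most, for Afm, which lies near Alb and differed less, and for Ahsg (GRCm38.p6, the build called mm10, 5′ to 3′). The RefSeq starts differ from the ends of the GENCODE gene spans whose positions are printed for each gene. Capitals mark matches on either strand to TATAAA (the TBP box), CCAAT (the NF-Y box), GTTAAT (part of an HNF1 site), TGTTTAC (FOXA), TTGCNNAA (C/EBP), AGGTCA (part of a PPAR or HNF4 site) or TTCNNNGAA (the core shared by STAT5 and BCL6 sites).
A1bg, chr15:60921271-60921520, minus strand: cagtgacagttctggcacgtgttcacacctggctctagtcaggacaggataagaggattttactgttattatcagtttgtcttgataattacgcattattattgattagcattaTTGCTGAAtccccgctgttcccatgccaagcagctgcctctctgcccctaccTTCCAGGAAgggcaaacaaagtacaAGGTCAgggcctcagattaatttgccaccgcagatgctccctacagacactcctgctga
Alb, chr5:90460620-90460869, plus strand: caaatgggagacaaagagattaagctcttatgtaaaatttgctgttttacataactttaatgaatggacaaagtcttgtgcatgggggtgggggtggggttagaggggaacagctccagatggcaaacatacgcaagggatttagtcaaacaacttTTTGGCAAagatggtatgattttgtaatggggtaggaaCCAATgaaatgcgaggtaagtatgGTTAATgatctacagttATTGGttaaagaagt
Afm, chr5:90518699-90518948, plus strand: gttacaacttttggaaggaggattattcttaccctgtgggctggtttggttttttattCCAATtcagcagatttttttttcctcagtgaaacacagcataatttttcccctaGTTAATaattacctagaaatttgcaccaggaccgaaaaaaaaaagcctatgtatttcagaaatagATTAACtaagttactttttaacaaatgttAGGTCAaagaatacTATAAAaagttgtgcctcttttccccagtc
Ahsg, chr16:22891765-22892014, plus strand: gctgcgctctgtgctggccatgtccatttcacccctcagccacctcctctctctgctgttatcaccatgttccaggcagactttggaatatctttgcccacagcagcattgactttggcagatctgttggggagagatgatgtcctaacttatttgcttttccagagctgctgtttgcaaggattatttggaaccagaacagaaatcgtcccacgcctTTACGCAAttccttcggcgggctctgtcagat

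RefSeq windows were found for 8 of the 9 members, 2 of them for Fetub, and were searched over 300 bases, 50 of them after the start. TTCNNNGAA occurred in 1 of the 9 windows, that of A1bg at -84 to -76 from the start, beside 8.3% of 32851 windows of all genes. The A1bg window also held TTGCNNAA at -136 to -129 and AGGTCA at -59 to -54. GTTAAT was in the windows of Alb, Afm and Gc, which share a gene family and chromosome 5, and in 7.1% of all windows. In Alb it lay at -32 to -27, between CCAAT matches at -56 to -52 and -15 to -11. AGGTCA was in 4 of the 9 windows (A1bg, Afm, Apoh and Ambp, beside 16.3% of all) and TTGCNNAA in 3 (A1bg, Alb and Ahsg, beside 10.8%). TATAAA was in 2 (Afm and Fetub, beside 13.6%), TGTTTAC in 2 (Apoh and Fetub, beside 3.65%) and CCAAT in 6 (beside 37.4%). A match is a run of letters and no measurement of binding.

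Alb (chromosome 5, 90460897 to 90476602) was the most abundant member and differed in opposite directions between the knockouts. Its log2 values were 21.21, 21.10, 21.14 and 21.22 in fed Bcl6LKO livers, against 19.64, 18.87, 19.32 and 19.49 in fed WT livers, a difference of 1.84 or 3.58-fold. The fed Bcl6LKO libraries lay close together and the fed WT libraries were spread, with replicate 2 lowest. With quantile normalization, which sets the highest row of each library equal, the difference was 0.34, and in the DKO table it was 0 (adjusted p = 1). In fasted DKO livers Alb was 20.65, 20.60, 20.87 and 20.67, against 19.79, 19.70, 19.41 and 19.71 in fasted WT livers, a difference of 1.05 (SE 0.24, limma adjusted p = 0.00635) with no overlap. Alb was lower in fasted PparaKO livers, at 18.45, 19.18, 18.93 and 18.88, against 19.68, 19.59, 19.31 and 19.60 in fasted WT livers. That difference of -0.68 (SE 0.22, adjusted p = 0.0425) was larger than the spread but near the threshold. The call was lost without fasted WT replicate 1, 2 or 4 or PparaKO replicate 3 or 4 (adjusted p = 0.113, 0.0884, 0.0935, 0.0702 and 0.103). Fasting left Alb at 19.72, 19.63, 19.36 and 19.64 in fasted WT livers, against 19.54, 18.84, 19.24 and 19.40 in fed WT livers, and the ranges overlapped (0.33, SE 0.20, adjusted p = 0.266). In bulk tissue, fewer cells of a type and less RNA per cell cannot be told apart.

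Alb alone took a large share of each library. The back-transformed values of Alb made up 12.1 ± 0.790% of the total in fasted DKO and 6.23 ± 0.677% in fasted WT livers, and 3.50 ± 0.723% in fasted PparaKO and 5.55 ± 0.578% in fasted WT livers (SD, n = 4). All 9 members together made up 18.1 ± 0.559% in fed Bcl6LKO livers, against 7.08 ± 1.18% in fed WT livers. The other 8 members without Alb took 2.24 ± 0.0709% in fed Bcl6LKO and 1.83 ± 0.0751% in fed WT livers. They took 2.26 ± 0.117% in fasted DKO and 1.72 ± 0.0451% in fasted WT livers, and 2.04 ± 0.0647% in fasted PparaKO and 1.72 ± 0.0434% in fasted WT livers. In fasting the 8 took 1.69 ± 0.0429% in fasted WT and 1.80 ± 0.0696% in fed WT livers. Alb was the highest row in 7, 7, 5 and 8 of the 8 libraries of the fasting, Bcl6LKO, PparaKO and DKO tables. Quantile normalization sets its difference in the DKO table to 0 by construction.

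**Figure D2:**
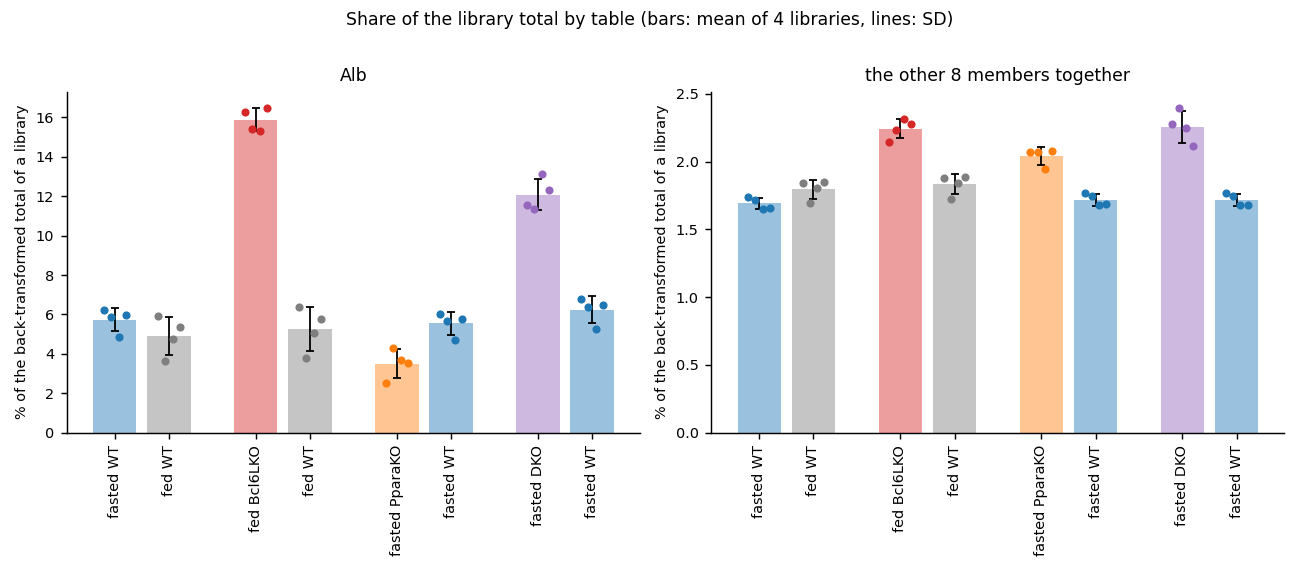
Share of the back-transformed total of each library, in percent, taken by Alb (left) and by the other 8 members together (right), for the 2 groups of each table. Bars are means of 4 libraries, lines are SD and points are libraries. Alb took 12.1% in fasted DKO and 3.50% in fasted PparaKO livers.

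Genes that tracked Alb over the 8 libraries of each table were, by mean Pearson r over the 4 tables among 11657 genes, Ces1c (0.927), a carboxylesterase of plasma, Prlr (0.915), the prolactin receptor, and Hamp2 (0.907), a hepcidin. The tables share WT libraries. Ces1c differed by 1.07 in the Bcl6LKO table, -0.30 in the PparaKO table and 0.75 in the DKO table, and Prlr by 4.69, -1.02 and 3.67.

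Afm and Gc, the family relatives of Alb, had smaller differences than Alb in the Bcl6LKO and DKO tables. Afm starts 42.3 kb beyond the end of Alb on chromosome 5 (90518932 to 90553543). It had 11.91, 11.82, 11.69 and 11.75 in fed Bcl6LKO livers, against 11.64, 11.05, 11.41 and 11.44 in fed WT livers. The 2 groups were barely apart, by a mean of 0.41. In fasted PparaKO livers Afm was 10.47, 10.61, 10.56 and 10.46, against 11.25, 11.14, 10.77 and 10.99 in fasted WT livers, and this difference of -0.51 (SE 0.09, limma adjusted p = 0.00250) passed under each of 17 alternatives. In DKO livers it was 11.04, 11.09, 11.05 and 10.97, inside the range of 10.75 to 11.28 in fasted WT livers (-0.01, SE 0.10, adjusted p = 0.955). The sign of that small difference turned under some scalings. Fasting gave -0.21 (SE 0.12, adjusted p = 0.255). Afp, the fetal albumin between Alb and Afm, was near the floor. In fasted PparaKO livers it was 4.27, 4.22, 4.09 and 4.05, against 3.77, 3.92, 3.96 and 3.86 in fasted WT livers. It passed the filter in that table alone, through the PparaKO libraries, so no test is given.

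Gc (chromosome 5, 89417522 to 89457898), the carrier of vitamin D and of actin released from cells, lies 1003 kb before Alb. Its libraries were tight. Gc was 16.54, 16.54, 16.58 and 16.55 in fed Bcl6LKO livers, against 16.05, 16.02, 16.00 and 16.03 in fed WT livers. In fasted DKO livers it was 16.47, 16.43, 16.38 and 16.23, against 16.06, 16.13, 15.94 and 16.01 in fasted WT livers. The DKO difference of 0.34 (SE 0.11, adjusted p = 0.0334) had no overlap, but missed the threshold without fasted WT replicate 1, 3 or 4 or DKO replicate 1, 2 or 3 (adjusted p = 0.0696, 0.0891, 0.0814, 0.0740, 0.0816 and 0.0612), and under 11 of 17 alternatives in all. Neither fasting (0.05, SE 0.07, adjusted p = 0.645) nor the PparaKO comparison (-0.03, SE 0.10, adjusted p = 0.854) gave a call, and the sign in fasting turned with the same total in every library.

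Ttr was the lower member of largest difference in DKO livers. On chromosome 18 (20665280 to 20674321), it read 14.04, 14.33, 14.31 and 13.87 in fasted DKO livers, against 15.20, 15.15, 14.91 and 15.09 in fasted WT livers. The difference of -0.95 (SE 0.12, limma adjusted p = 0.000171) left no overlap and passed under each of 17 alternatives. Ttr was 14.47, 14.96, 14.99 and 15.13 in fed Bcl6LKO livers, against 15.60, 15.24, 15.50 and 15.56 in fed WT livers, with fed Bcl6LKO replicate 1 lowest. It thus lay on the other side of WT from Alb in both tables. In fasted PparaKO livers it was 14.95 to 15.12, against 15.04 to 15.31 in fasted WT livers (-0.16, SE 0.09, adjusted p = 0.243). In fasted WT livers it was 15.35, 15.30, 15.09 and 15.24, against 15.60, 15.28, 15.51 and 15.56 in fed WT livers. That difference of -0.24 (SE 0.09, adjusted p = 0.0865) missed the threshold and passed with the same total in every library (-0.33, adjusted p = 0.0191) or without fed WT replicate 2 (-0.31, adjusted p = 0.0340). Its partner Rbp4, the retinol carrier, rose by 0.71 (SE 0.07, adjusted p = 0.000103) in fasting, with 15.48, 15.32, 15.48 and 15.41 in fasted WT livers against 14.71, 14.77, 14.73 and 14.64 in fed WT livers. Rbp4 gave 0.02 (SE 0.06, adjusted p = 0.804) in the Bcl6LKO and -0.19 (SE 0.10, adjusted p = 0.169) in the DKO table, neither of which passed.

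**Figure D3:**
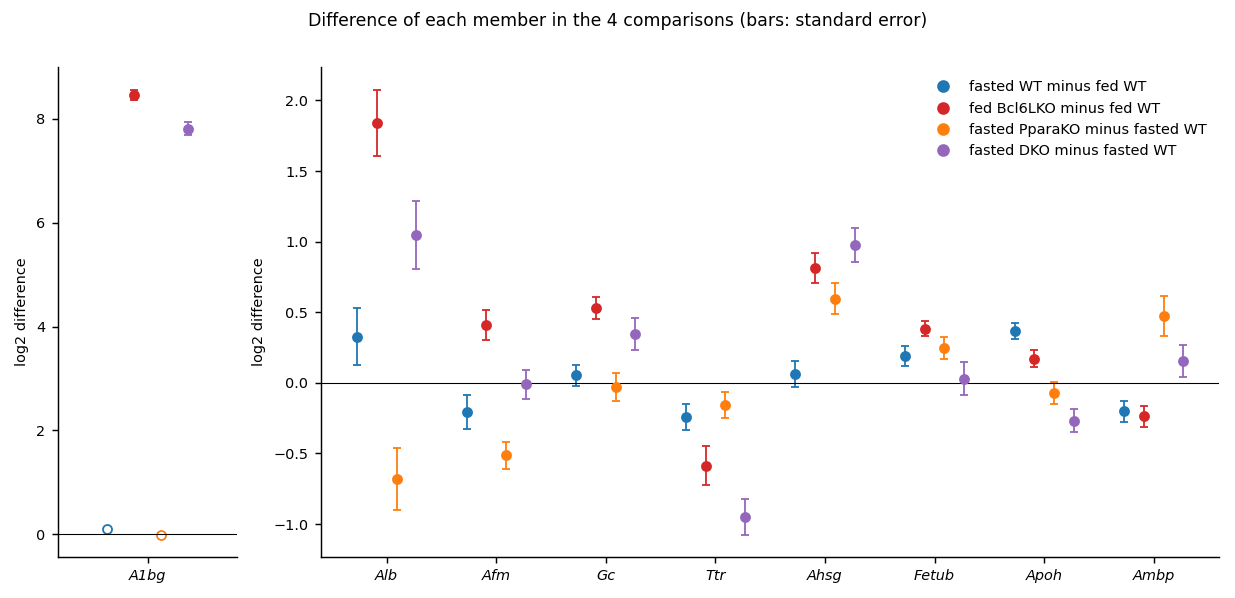
Log2 difference of each member in the 4 comparisons (points), with the standard error (bars); open points are values below the filter, with no fit. A1bg has its own axis. Alb was higher by 1.05 in fasted DKO livers and Ttr lower, at -0.95, and the differences in fed Bcl6LKO livers come from the comparison that chose the members.

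The fetuins are neighbours on chromosome 16, where Ahsg (22891277 to 22899449), Fetub, Hrg, Kng2 and Kng1 follow each other with gaps of 11.3 to 28.4 kb. Bcl6, whose floxed allele is named for WT but not for PparaKO mice, lies 1066 kb from Ahsg and 1025 kb from Fetub. Ahsg was higher in all 3 knockout groups. It was 17.21, 17.34, 17.30 and 17.09 in fasted DKO livers, against 16.29, 16.21, 16.33 and 16.20 in fasted WT livers, a rise of 0.98 (SE 0.12, limma adjusted p = 0.000132). In fasted PparaKO livers it was 16.92, 16.96, 16.78 and 16.97, against 16.34, 16.27, 16.38 and 16.25 in fasted WT livers (0.60, SE 0.11, adjusted p = 0.00283). The PparaKO call was lost with quantile normalization (0.27, adjusted p = 0.126). Ahsg was 16.92, 16.97, 17.16 and 17.01 in fed Bcl6LKO livers, against 16.19, 16.00, 16.34 and 16.27 in fed WT livers. Fasting gave 0.06 (SE 0.09, adjusted p = 0.653), of a sign that turned with the same total.

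Fetub (chromosome 16, 22918334 to 22939778) was called in 1 of the 3 tables tested. In fasted PparaKO livers it was 12.81, 12.89, 12.94 and 12.99, against 12.67, 12.59, 12.85 and 12.55 in fasted WT livers. The ranges overlapped, and the call (0.24, SE 0.08, adjusted p = 0.0420) was lost without fasted WT replicate 1, 2 or 4 or PparaKO replicate 2, 3 or 4 (adjusted p = 0.0556 to 0.116), and under 10 of 17 alternatives in all. The exact permutation p was 0.0571. In fed Bcl6LKO livers Fetub was 12.75 to 12.86, against 12.31 to 12.49 in fed WT livers, and in DKO livers the difference was 0.03 (SE 0.12, adjusted p = 0.862), whose sign turned with the same total. In fasting the groups did not overlap, at 12.50 to 12.80 in fasted WT and 12.33 to 12.48 in fed WT livers, yet the difference of 0.19 (SE 0.07, adjusted p = 0.0813) missed the threshold. The next gene, Hrg, encodes the histidine-rich glycoprotein, which binds heparin and zinc. It rose by 0.36 (SE 0.07, adjusted p = 0.00377) in fasted WT livers and by 0.45 (SE 0.09, adjusted p = 0.00429) in PparaKO livers, and was not called in the Bcl6LKO (adjusted p = 0.989) and DKO tables (0.04, adjusted p = 0.788). Kng1 and Kng2, which encode kininogens, the precursors of bradykinin, were higher in fed Bcl6LKO livers (0.53, SE 0.07, adjusted p = 0.000140, and 0.36, SE 0.07, adjusted p = 0.00163) and in DKO livers (0.57, SE 0.09, adjusted p = 0.000805, and 0.29, SE 0.08, adjusted p = 0.0171). They are close relatives, and reads may be split between them.

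Apoh (chromosome 11, 108343354 to 108414396) was the member that fasting raised. It was 14.37, 14.28, 14.24 and 14.35 in fasted WT livers, against 14.04, 13.91, 13.91 and 13.93 in fed WT livers. The rise of 0.37 (SE 0.06, limma adjusted p = 0.00179) had no overlap and passed under each of 17 alternatives. In fasted DKO livers Apoh was 13.94, 14.00, 14.12 and 13.97, against 14.34, 14.25, 14.20 and 14.32 in fasted WT livers. This difference of -0.27 (SE 0.08, adjusted p = 0.0245) missed the threshold without fasted WT replicate 1, 2 or 4 or DKO replicate 1 or 2 (adjusted p = 0.0510 to 0.0699). Apoh differed by -0.07 (SE 0.08, adjusted p = 0.545) in PparaKO livers. In fed Bcl6LKO livers it was 14.04 to 14.15, against 13.87 to 14.01 in fed WT livers, a difference of 0.17 that turned to -0.045 with the same total. In fasted WT livers 6 of 10 hepatocyte markers were also called higher, and the log2 of the summed back-transformed values of that list was 18.1 to 18.3 in fasted WT and 17.7 to 17.8 in fed WT livers. The erythroid markers were higher too (6 of 7, and 1 lower), with sums of 13.5 to 13.8 in fasted WT and 12.3 to 12.9 in fed WT livers. Markers of stellate cells and fibroblasts were lower for 4 of 8 (median -0.27), with sums of 12.39 to 12.64 in fasted WT and 12.44 to 12.86 in fed WT livers. The adipose sum was 5.94 to 7.45 in fasted WT and 5.31 to 5.50 in fed WT livers. Of all genes, 11.9% were called higher and 11% lower in fasting. The part of these cell types in the rise of Apoh was not tested.

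Ambp (chromosome 4, 63143275 to 63154799) was higher in fasted PparaKO livers, at 15.25, 14.64, 14.55 and 14.77, against 14.41, 14.43, 14.26 and 14.22 in fasted WT livers (0.47, SE 0.14, adjusted p = 0.0298). PparaKO replicate 1 was highest and lay well above the other 3. Without it the difference was 0.32 (SE 0.09, adjusted p = 0.0267). The call was lost without fasted WT replicate 3 or 4 or PparaKO replicate 4 (adjusted p = 0.0679, 0.0733 and 0.0619). Ambp ranged over 14.15 to 14.34 in fed Bcl6LKO livers, against 14.35 to 14.60 in fed WT livers. Fasting gave -0.20 (SE 0.08, adjusted p = 0.0828), which passed with the same total (-0.29, adjusted p = 0.0165), and DKO livers gave 0.15 (SE 0.11, adjusted p = 0.319).

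Bikunin, made from Ambp, is joined to heavy chains encoded by Itih1, Itih2 and Itih3, and Itih4 is a relative that does not join it. Itih4 was 17.59, 17.33, 17.02 and 16.82 in fasted DKO livers, against 14.60, 14.92, 14.57 and 14.32 in fasted WT livers (2.59, SE 0.19, adjusted p = 2.51e-06). Itih4 read 17.10, 16.72, 16.84 and 16.71 in fed Bcl6LKO livers, against 14.97, 15.18, 14.59 and 14.85 in fed WT livers (1.94, SE 0.13, adjusted p = 1.33e-06). All libraries of these knockout groups lay above WT. In fasted PparaKO livers Itih4 was 16.57, 15.44, 15.49 and 15.41, against 14.59, 14.89, 14.56 and 14.33 in fasted WT livers (1.14, SE 0.24, adjusted p = 0.00521), again with replicate 1 highest. Itih3 rose by 0.59 (SE 0.09, adjusted p = 0.000456), 0.87 (SE 0.17, adjusted p = 0.00403) and 0.94 (SE 0.14, adjusted p = 0.000381) in Bcl6LKO, PparaKO and DKO livers. Itih1 and Itih2 were higher in fed Bcl6LKO livers (0.34, SE 0.06, adjusted p = 0.00160, and 0.56, SE 0.06, adjusted p = 3.83e-05) and DKO livers (0.43, SE 0.09, adjusted p = 0.00445, and 0.40, SE 0.09, adjusted p = 0.00609). Itih2 was also higher in fasting (0.30, SE 0.07, adjusted p = 0.0139). Over the 9 binding and family partners, 3 of 8 fitted were higher in fasting and none was lower. In fed Bcl6LKO livers and in DKO livers 6 of 8 were higher and none lower. Of all genes, 11.9%, 18.3% and 19.3% were higher in these comparisons and 11%, 19.8% and 20.8% lower. In PparaKO livers 4 of 9 were higher, Afp included, and none lower, beside 11.7% and 13.3% of all genes. Afp entered that fit through the PparaKO libraries, so nothing is read from that count and its median. The median differences were 0.16, 0.44, 0.18 and 0.42 for the fasting, Bcl6LKO, PparaKO and DKO tables, beside -0.0025, -0.0074, 0.0055 and 0.0027 over all genes.

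**Figure D4:**
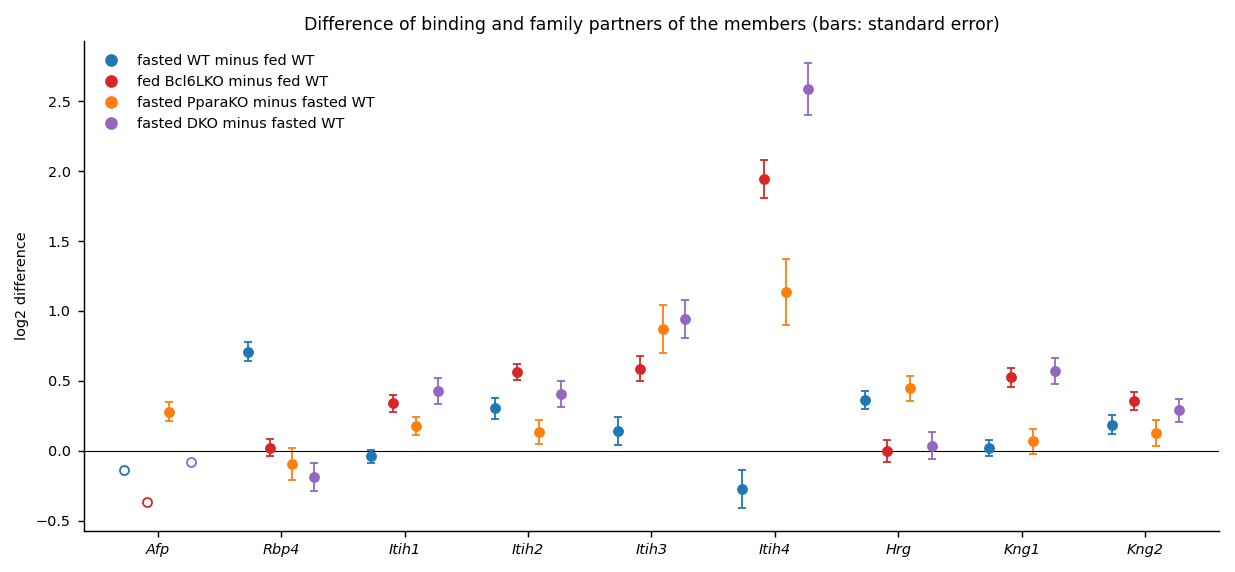
Log2 difference of the 9 binding and family partners of the members in the 4 comparisons (points), with the standard error (bars); open points are values below the filter, with no fit. Itih4 reached 2.59 in fasted DKO and 1.94 in fed Bcl6LKO livers, and Rbp4 was higher in fasting, by 0.71.

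PparaKO replicate 1 also stood apart in acute-phase carriers. Orm2, an orosomucoid that binds basic drugs, was 13.12, 10.63, 10.00 and 10.69 in fasted PparaKO livers, against 6.92, 7.39, 7.41 and 6.88 in fasted WT livers (3.96, SE 0.51, adjusted p = 0.000276). Hpx, the heme carrier, was 17.51, 16.62, 16.47 and 16.66 in fasted PparaKO livers, against 15.27, 15.27, 15.38 and 15.17 in fasted WT livers (1.54, SE 0.20, adjusted p = 0.000260). Replicate 1 was highest for both, and had the lowest Alb. Without it Alb was still lower (-0.55, SE 0.18, adjusted p = 0.0486), as was Afm (-0.50, adjusted p = 0.00733), and Ahsg higher (0.59, adjusted p = 0.00293). The hepatocyte marker sum was 18.39 to 18.73 in fasted PparaKO and 18.19 to 18.35 in fasted WT livers. The part of these markers or of replicate 1 in the other values was not tested.

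Other transport proteins of plasma moved as a mixed group. Of 15 fitted, 8 were higher and 4 lower in fed Bcl6LKO livers, 9 and 2 in DKO livers, 7 and 2 in PparaKO livers and 4 and 3 in fasting, with medians of 0.31, 0.69, 0.24 and -0.036. Over all genes, 18.3% were higher and 19.8% lower in fed Bcl6LKO livers, 19.3% and 20.8% in DKO livers, 11.7% and 13.3% in PparaKO livers, and 11.9% and 11% in fasting. Serpina6, which carries corticosteroids, was 17.47, 17.30, 17.36 and 16.99 in fasted DKO livers, against 12.04, 11.70, 11.39 and 11.30 in fasted WT livers (5.67, SE 0.17, adjusted p = 2.61e-09). Like Alb it was lower in PparaKO livers (-1.42, SE 0.16, adjusted p = 0.000105) and higher in fed Bcl6LKO livers (6.22, SE 0.07, adjusted p = 6.67e-13). Cp, the copper carrier ceruloplasmin, was higher by 2.25 (SE 0.14, adjusted p = 6.88e-07) in DKO and 2.07 (SE 0.08, adjusted p = 9.12e-09) in fed Bcl6LKO livers. Mug1, a murinoglobulin protease inhibitor, was lower, with a difference of -2.23 (SE 0.13, adjusted p = 4.85e-07) in DKO and -2.27 (SE 0.09, adjusted p = 1.22e-08) in fed Bcl6LKO livers, and higher by 0.59 (SE 0.09, adjusted p = 0.00165) in fasting. Serpina7, the thyroxine binding globulin that shares its hormone with Ttr, was lower, with a difference of -1.19 (SE 0.26, adjusted p = 0.00810) in fasting and -1.51 (SE 0.26, adjusted p = 0.00118) in fed Bcl6LKO livers.

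Among receptors that recycle or clear carriers, Fcgrt encodes the neonatal Fc receptor, which rescues albumin from degradation. It was 10.20, 10.29, 10.17 and 9.96 in fasted DKO livers, against 11.07, 10.96, 11.01 and 10.95 in fasted WT livers (-0.84, SE 0.08, adjusted p = 1.67e-05). It was also lower in fasted PparaKO livers (-0.51, SE 0.06, adjusted p = 9.33e-05) and in fed Bcl6LKO livers (-0.20, SE 0.05, adjusted p = 0.00881), and higher in fasted WT livers (0.33, SE 0.04, adjusted p = 0.000750). Asgr1 and Asgr2, the asialoglycoprotein receptor, were higher in fed Bcl6LKO livers (0.91, SE 0.05, adjusted p = 4.05e-07, and 1.16, SE 0.08, adjusted p = 9.14e-07) and DKO livers (0.65, SE 0.07, adjusted p = 5.39e-05, and 1.17, SE 0.06, adjusted p = 2.42e-07). Of the 8 receptors 4 or 5 were fitted, and 2, 3, 1 and 2 were higher and 0, 1, 2 and 1 lower for fasting and the Bcl6LKO, PparaKO and DKO tables. Beside the shares of all genes called (11.9%, 18.3%, 11.7% and 19.3% higher, 11%, 19.8%, 13.3% and 20.8% lower), nothing is read from so few genes.

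Of 16 transcription factors that act on albumin-type promoters, all fitted, 8 were lower and 2 higher in fed Bcl6LKO livers (19.8% and 18.3% of all genes), 7 and 1 in DKO livers (20.8% and 19.3%), 5 and 1 in PparaKO livers (13.3% and 11.7%), and 1 and 2 in fasting (11% and 11.9%). Foxa1, a forkhead pioneer factor, was 6.58, 6.90, 6.42 and 6.57 in fasted DKO livers, against 8.14, 8.05, 8.07 and 8.02 in fasted WT livers (-1.45, SE 0.10, adjusted p = 1.82e-06). It was lower, with a difference of -1.26 (SE 0.10, adjusted p = 2.56e-06) in fed Bcl6LKO livers and -0.52 (SE 0.07, adjusted p = 0.000250) in PparaKO livers. Cebpa, the C/EBPα gene, was lower in PparaKO (-0.45, SE 0.09, adjusted p = 0.00368) and DKO livers (-0.95, SE 0.15, adjusted p = 0.000660). Hlf, a clock-output factor of the PAR bZIP family, was lower in fed Bcl6LKO (-0.76, SE 0.07, adjusted p = 1.5e-05), PparaKO (-0.75, SE 0.07, adjusted p = 1.7e-05) and DKO livers (-1.39, SE 0.10, adjusted p = 2.06e-06) and higher in fasting (0.39, SE 0.07, adjusted p = 0.00325).

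Levels were set in order per kilobase of the longest coding transcript, as log2 of the back-transformed value per kb. In fed WT livers of the Bcl6LKO table the order was Alb (18.31), Ahsg (15.63), Ttr (15.23), Gc (15.17), Ambp (14.15), Apoh (13.66), Fetub (11.74), Afm (10.08) and A1bg (5.35), and only Ttr and Gc had overlapping ranges as neighbours. In fed Bcl6LKO livers A1bg (13.82) stood beside Apoh (13.83) and Ambp (13.92), 3 neighbours in a row whose ranges overlapped, above Fetub and Afm. In fasted DKO livers of the DKO table A1bg (12.89) was also above Fetub (11.93) and Afm (9.74), while Ttr (13.89) had overlapping ranges with Ambp (14.03) and Apoh (13.76). In fasted WT livers of that table Ttr (14.84) was apart from Apoh (14.03), and Apoh and Ambp overlapped. Alb was first and Ahsg second in every group of every table.

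Within groups, the deviations of Alb were set beside those of the other members. The deviations of the 8 libraries of a table from their group means correlated between Alb and Afm with r of 0.933, 0.918, 0.625 and 0.751 for the fasting, Bcl6LKO, PparaKO and DKO tables. For Alb and Ttr the values were 0.967, 0.430, 0.756 and 0.536, and for Alb and Ahsg 0.413, 0.521, -0.128 and -0.169. These are descriptions over 8 libraries, which share scaling and, between tables, WT libraries. Among fed WT libraries replicate 2 was lowest for Alb, Afm and Ttr, and among fasted WT libraries replicate 3. Without the 2 libraries farthest in Alb from the median of each table, r for Afm was 0.724, 0.335, 0.413 and 0.601 and r for Ttr 0.817, -0.031, 0.160 and 0.173 over 6 libraries. Rn45s, the ribosomal RNA precursor left after depletion, was highest in fasted WT replicate 3 among fasted WT libraries (3.91% of the total in the fasting table) and in fed WT replicates 2 and 3 among fed WT libraries (4.06% each). Its deviations correlated with those of Alb with r of -0.720, -0.616, -0.557 and -0.268, and its part in the spread was not tested.

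**Figure D5:**
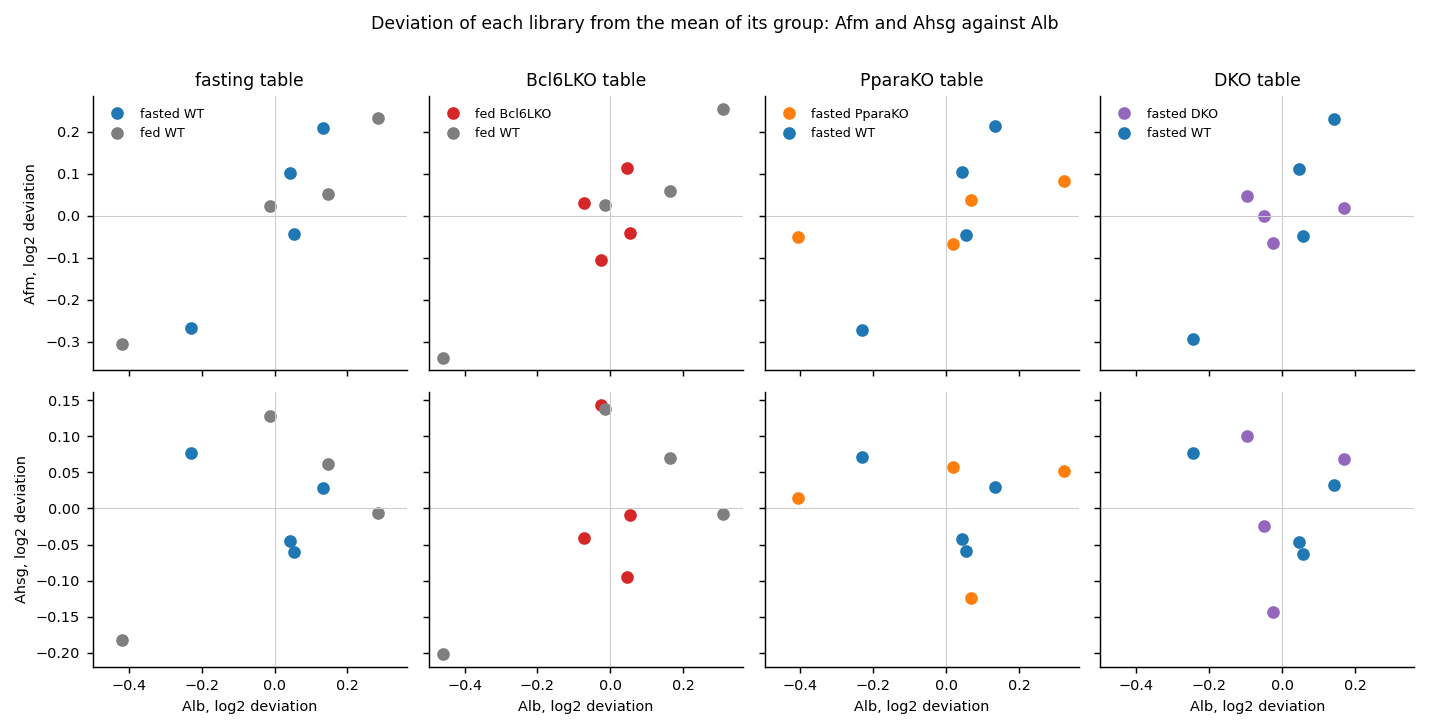
Deviation of each library from the mean of its group, in log2 units, for Afm (top) and Ahsg (bottom) against Alb, in the 4 tables; colours are groups. For Afm r was 0.625 to 0.933 over 8 libraries a table, with fed WT replicate 2 and fasted WT replicate 3 at the low end, and for Ahsg -0.169 to 0.521.

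In DKO livers the erythroid markers were lower (7 of 7), with a summed log2 level of 12.6 to 13.1 in fasted DKO and 13.5 to 13.9 in fasted WT livers. Of the hepatocyte markers 1 of 10 was higher and 4 lower, with sums of 18.0 to 18.3 in fasted DKO and 18.1 to 18.3 in fasted WT livers. Markers of stellate cells and fibroblasts were higher for 3 of 8, at 12.4 to 12.8 in fasted DKO and 12.3 to 12.6 in fasted WT livers. Of the 4 neutrophil markers 3 were fitted and all 3 were higher, with sums over the list of 6.78 to 7.41 in fasted DKO and 6.34 to 6.64 in fasted WT livers. Of the endothelial markers 3 of 8 were higher, at 12.91 to 12.98 in fasted DKO and 12.69 to 12.93 in fasted WT livers. In fed Bcl6LKO livers 5 of 8 endothelial markers were higher, with sums of 13.0 to 13.2 in fed Bcl6LKO and 12.8 to 12.9 in fed WT livers. Of all genes, 19.3% were higher and 20.8% lower in DKO livers, and 18.3% and 19.8% in fed Bcl6LKO livers. Of the adipose markers 3 of 4 were listed at 0 in the Bcl6LKO table, and the pancreas sum was at most 2.51. The part of other cell types in the values of the members was not tested.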

How the data were processed

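The authors sequenced ribosome-depleted total RNA from mouse liver, aligned the reads to mm10 with STAR, counted exon reads with HOMER and normalised the counts with DESeq2, per the study's methods. They deposited 4 tables of 24443 genes, each with log2 values for 8 libraries. The deposited tables also hold the authors' own fold changes and p-values, which were not used. Since the deposited log2 values hold no counts, read depth and counting error are unknown.

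Each table was fitted by itself with limma 3.58.1 (R 4.3.3, intensity trend, 2 groups) over genes with a mean of at least 4, with Benjamini-Hochberg adjustment over all genes fitted. The code was tested on simulated data. Members were also compared with an exact permutation test over 70 arrangements. Shares and marker sums use back-transformed values. Positions and lengths are from GENCODE vM21. The members and lists were chosen with earlier results of these data known. Named genes are the members, the deleted genes, the binding and family partners, at most 4 called genes of largest difference per other list and table, and the 3 genes most like A1bg or Alb. Genes with close relatives (Kng1 and Kng2, the Orm, Mug, Mup and Cyp families) are uncertain, since reads may be split among them.

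Samples were grouped by their labels. In the fasting table, same-numbered libraries deviated together (r of 0.257, 0.133, 0.207 and 0.151 for replicates 1 to 4, each best with its own number). The labels do not say whether the numbers pair the samples, and the main fit has no pairing. The block changed no member call in that table. Alternatives were 4 other scalings, other filters, spread models, weights, the replicate block, a fold over 2 and leaving out each replicate. Fasted Bcl6LKO samples were not analysed here. A gene that the rule for named genes selected is not reported here.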

Additional observations from a re-analysis of the deposited data

Results flagged for a closer look

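Among 72 groups of 4 libraries (9 members, 8 groups), 3 held a library far from the other 3, where chance alone gives about 1 in 20 groups. A1bg in fed WT replicate 4 of the fasting table was 2.48, against 2.34 to 2.36 in the other 3, a small gap near the floor. Apoh in fed WT replicate 1 was 14.04 in the fasting table, against 13.91 to 13.93 in the other 3. The same library was 14.01 for Apoh in the Bcl6LKO table, against 13.87 to 13.89 in the other 3, so these are not independent.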

How the results depend on the processing

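Each group had 4 libraries and no read counts, which limits what small differences show. In DKO livers the calls of Ahsg and Ttr passed under each of 17 alternatives, as did Afm in PparaKO livers and Apoh in fasting. In fasting, members called lower were 2 with the same total, with the same total without the members and with quantile normalization (Ttr and Ambp), against 0 as deposited, and 0 to 1 when each replicate was left out. Members called higher in fasting stayed at 1 when each replicate was left out. A fold over 2 left 0 members higher in fasting, 0 higher and 0 lower in PparaKO livers, and 2 higher and 0 lower in DKO livers. Outside the fasting table, same-numbered libraries had r of -0.13 to 0.099. With the replicate block, 2 members were higher and 1 lower in PparaKO livers and 3 higher and 1 lower in DKO livers. In fasting the block left 1 higher and 0 lower. Quantile normalization left 1 lower in DKO livers. Counts of members higher in DKO livers include A1bg, which entered the fit through the DKO libraries. Leaving out replicates gave 1 to 3 higher and 1 to 2 lower in PparaKO livers, and 3 to 4 higher and 1 to 2 lower in DKO livers. With Bcl6 deleted in fed livers, 7 to 9 members did not overlap over all alternatives, beside 36.7% of all genes as deposited. Leaving out a replicate cannot undo a lack of overlap, and nothing is read from this count.

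Signs turned for small differences only, and the cause was not tested. In fasting Gc gave -0.036, -0.025 and -0.064 and Ahsg -0.026, -0.015 and -0.091 with the same total, the same total without the members and quantile normalization. With the same total, Apoh gave -0.045 in the Bcl6LKO table and Fetub -0.057 in the DKO table. Afm in the DKO table gave 0.0079 with the same total without the members, 0.17 with quantile normalization, 0.00025 with array weights and -0.11 to 0.067 when a replicate was left out, positive without fasted WT replicate 1 or 2 or DKO replicate 4 (0.067, 0.028 and 0.013). Fetub there gave -0.052 to 0.13, negative without fasted WT replicate 4 or DKO replicate 3 (-0.0092 and -0.052). Outside the replicates left out, Alb in PparaKO livers missed the threshold with the block and quantile normalization (adjusted p = 0.0734 and 0.159), Gc in DKO livers with the same total, median centring, quantile normalization, no filter and the block (0.0663, 0.0536, 0.528, 0.0741 and 0.0507), Apoh there with quantile normalization and the block (0.210 and 0.0637), and Fetub in PparaKO livers with the same total without the members, median centring, no filter and the block (0.0761, 0.0525, 0.0602 and 0.0598).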

Other observations

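Genes that fold and export secreted proteins from the endoplasmic reticulum were counted beside all genes. Nothing is read from their count in fed Bcl6LKO livers. Of 18 genes, 12 were higher and 1 lower in DKO livers, 4 and 0 in PparaKO livers, 4 and 1 in fed Bcl6LKO livers, and 3 and 10 in fasting, with median differences of 0.55, 0.049, 0.093 and -0.19. Of all genes, 19.3% were higher and 20.8% lower in DKO livers, 11.7% and 13.3% in PparaKO livers, 18.3% and 19.8% in fed Bcl6LKO livers, and 11.9% and 11% in fasting. Hspa5, the main chaperone of this compartment, was 13.83, 14.01, 15.69 and 16.21 in fasted DKO livers, against 13.51, 13.10, 13.20 and 13.18 in fasted WT livers, so DKO replicates 3 and 4 lay far above replicates 1 and 2. Its difference was 1.69 (limma adjusted p = 0.0147). The disulfide isomerase gene Pdia6 was lower in fasted WT than in fed WT livers, with a difference of -0.75.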
